A study of Mus musculus with 2 samples.

Results

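The genes described here are those of fibroblast growth factor (FGF) signalling in the fetal mouse lung: the ligands, the receptors, the adaptors and carrier beside them, the feedback inhibitors and ETS transcription factors that the pathway switches on, and genes named after a fusion partner of Fgfr1. They were chosen by gene name on the array, as every name that begins with Fgf, Fgfr, Spry or Spred and a digit, with Fgfrl1, Fgfbp1, Etv1, Etv4, Etv5, Dusp6, Frs2 and Frs3 added. The choice gave 42 of the 27593 genes on the array, read by 74 of its 41174 probes for mouse transcripts. RNA came from 1 lung of a male embryo homozygous for Foxj1lacZ (Foxj1 –/–) and 1 lung of a male littermate heterozygous for it (Foxj1 +/–), both at E16.5 on a Sv129/CD-1 hybrid background. Both embryos therefore carried the lacZ allele, and no wild-type lung was measured here. Foxj1 encodes a forkhead transcription factor known for switching on the genes of motile cilia. The titles speak of lung lobes and the source names of lung epithelium. No step that isolates epithelium is described, and tissue outside the lobes was cut away.

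FGFs are secreted proteins that bind receptor tyrosine kinases together with heparan sulphate, and the activated receptor signals through the adaptor Frs2 to Ras and the kinase ERK. In the developing lung, Fgf10 from the mesenchyme acts on Fgfr2 in the epithelium at the tips of the growing airways, and loss of either gene in mice leaves the lung unformed. ERK activity in turn raises Etv4, Etv5, the Sprouty genes and Dusp6, which are widely used as readouts of the pathway, and several of these proteins damp the signal.

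Both RNAs were hybridised to 1 two-colour Agilent array, the homozygous RNA in Cy5 and the heterozygous RNA in Cy3, with no dye swap. No test was made and no p-value is given, since dye and genotype cannot be told apart and each genotype has 1 lung. Levels below are background-corrected, loess-normalized intensities on the log2 scale. They are used to compare the 2 lungs at 1 probe. Probes of a gene are called bright or dim by signal only, which is no measure of how much of a transcript was present. Ratios are log2 of homozygous over heterozygous, and each is followed, after ±, by the error that the scanner software gives for its log ratio. That error covers noise on the array and not the difference between animals. Of 43379 mouse spots, 75.6% were well above background in the homozygous channel and 69.0% in the heterozygous channel. Foxj1 itself had a level of 7.61 in the homozygous lung and 9.53 in the heterozygous lung, a ratio of −1.92 ± 0.30 at its single probe. Whether that probe lies in the part of Foxj1 that the allele removes was not settled, so it may not check the labels. The lung epithelial regulator Nkx2-1 was well measured in both lungs, at 13.01 in the homozygous lung and 13.16 in the heterozygous lung. Markers of motile ciliated cells, a list that holds Foxj1 itself, were low in the homozygous lung, with 10 of 12 detected genes at least 2-fold lower. So were 4 of 8 club cell markers. Over all detected genes the share at least 2-fold lower was 1.88%. Cardiac and striated muscle markers were measured in both channels and were below 0 in 14 of 14 detected genes, 7 of them at least 2-fold lower. Their summed level was 20118 in the homozygous lung and 52022 in the heterozygous lung, and their part in the results below was not tested.

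Of the 42 FGF signalling genes, 35 were detected, that is, well above background in the RNA of at least 1 lung. For 32 this held in both channels and for 3, Fgf2, Fgf14 and Fgf17, in the homozygous one. The others, Fgf3, Fgf6, Fgf15, Fgf16, Fgf21, Fgf22 and Spred3, were not well above background in either channel and have no ratio. None of the 35 reached a 2-fold difference with loess, where 1.88% of all 21172 detected genes were lower by 2-fold or more in the homozygous lung and 0.576% were higher by as much. With a limit of 1.5-fold, Fgf18 and Fgfbp1 were lower, 5.71% of the 35 genes against 5.87% of all genes, and Spry3 was higher, 2.86% against 2.1% of all genes. These shares lie close to the background. With the ratios centred on their median and no loess step, the count was 0 lower and 8 higher (Fgf9, Fgfr3, Fgfrl1, Spry1, Spry2, Etv1, Etv4 and Fgfr1op2), against 6.33% lower and 22.7% higher of all genes. With the scanner software's own ratio it was 2 lower and 5 higher, against 11.1% lower and 8.62% higher. The median ratio of the 35 genes was 0.07 and 15 of them lay below 0, where 50.4% of all genes did and the median of all genes was −0.0027. In lung tissue measured as a whole, fewer cells of a type and less RNA per cell cannot be told apart, and this holds for every gene below.

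**Figure D1:**
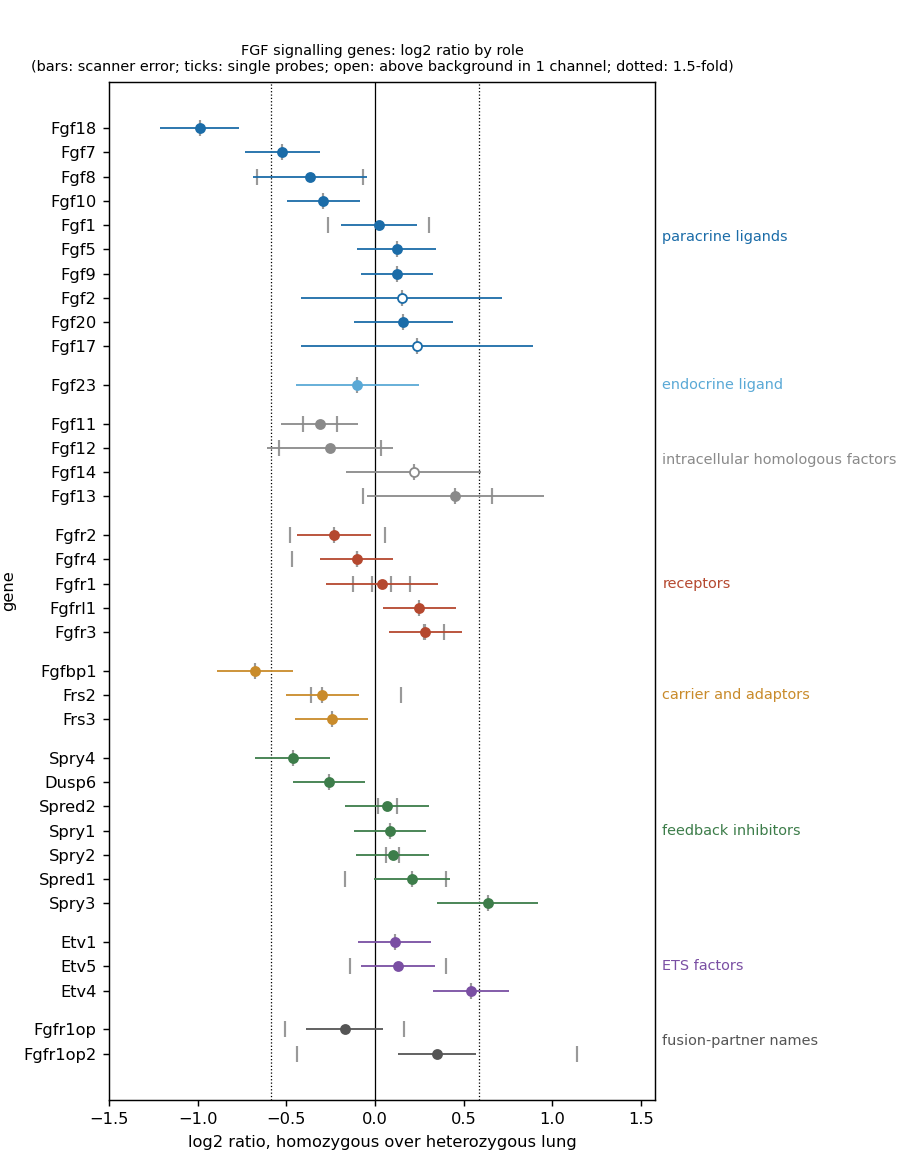
Log2 ratio of homozygous over heterozygous lung (horizontal axis) for the 35 detected FGF signalling genes, grouped by role, with the scanner error as bars, single probes as grey ticks and open circles for genes detected in the homozygous channel alone. Fgf18 and Fgfbp1 lie beyond the dotted 1.5-fold line on the low side and Spry3 beyond it on the high side, while the other points lie between those lines.

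Among the secreted ligands that act on neighbouring cells, Fgf18 stood furthest from equality with loess. With median centring Fgf9 stood at 0.60 and Fgf18 at −0.36. Fgf18 is a mesenchymal ligand of lung and growing cartilage. Its level was 12.43 in the homozygous lung and 13.42 in the heterozygous lung, a ratio of −0.99 ± 0.22, or 1.98-fold lower. It was the 417th lowest ratio of the 21172 detected genes. It rests on 1 spot of 1 probe, at chr11:33017441-33017500 on the minus strand of the mm8 build. Under 10 other processing choices the ratio stayed below 0, between −0.99 and −0.36. The last value came from median centring, which moved the median of all genes by 0.22, so that Fgf18 lay 0.59 below that shift. That shift is 1 value for all genes, though dim and bright genes moved by unlike amounts. Fgf2, with a level of 6.62 in the homozygous lung, went from 0.15 to −0.20. Dusp6, with a level of 14.14 there, went from −0.26 to 0.49. The part of signal level in a distance from the shift was not tested, here and below.

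Fgf18 is also a gene of cartilage, which surrounds the larger airways. Of 12 cartilage markers on the array 11 were detected, with a median ratio of 0.09, a lowest of −0.31 for Snorc and a highest of 0.30 for Matn3. Their summed level was 10344 in the homozygous lung and 9556 in the heterozygous lung, and 5 of the 11 lay below 0. The part of cartilage in the value of Fgf18 was not tested. Matn1, a defining matrix protein of cartilage, was not well above background in either channel. The 14 lung mesenchyme markers had a median of −0.01, with 1 gene at least 1.5-fold lower and summed levels of 190031 in the homozygous lung and 211736 in the heterozygous lung.

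Fgf7, the mesenchymal ligand also called keratinocyte growth factor, had a level of 9.64 in the homozygous lung and 10.17 in the heterozygous lung. Its ratio of −0.52 ± 0.21 put it 1.44-fold lower, just short of the 1.5-fold limit that Fgfbp1 and Fgf18 passed. Median centring left −0.05 of it, which is 0.28 below the shift of all genes. The value rests on 1 probe, whose sequence is shown as the stretch of Fgf7 that was read, from the deposited scanner file, at chr2:125780852-125780911 on the plus strand of mm8.
Fgf7 probe: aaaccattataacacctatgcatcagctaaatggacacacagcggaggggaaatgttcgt
Fgf10, the ligand that drives branching, was printed on 10 spots. Its level was 10.709 in the homozygous lung and 11.001 in the heterozygous lung, a ratio of −0.29 ± 0.03 (SD over 10 spots of the array, not over animals). The scanner error was 0.21. Fgf10 was thus 1.22-fold lower with loess, whereas median centring turned its sign to 0.24, which is 0.02 above the shift of all genes.

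Fgf8, a patterning signal of limb bud and brain, was read by a probe with a level of 8.74 in the homozygous lung and 9.40 in the heterozygous lung. That probe stood at −0.67 ± 0.03 (SD over 9 spots). A dimmer probe of Fgf8, above background in the homozygous RNA alone, stood at −0.07 with levels of 6.64 and 6.71 in the homozygous and heterozygous lung. The gene's median was −0.37 ± 0.32. Fgf17, a close relative of Fgf8, was measured in the homozygous channel alone, at 6.70, and its bound was at least 1.06-fold higher, less than its error.

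The other ligands lay close to equality with loess. Fgf9, which comes from epithelium and mesothelium in the mouse lung, had a level of 10.06 in the homozygous lung and 9.94 in the heterozygous lung, a ratio of 0.12 ± 0.21. With median centring it was 0.60, which is 0.38 above the shift of all genes. Mesothelial markers spread more widely: 12 of 12 were detected with a median of 0.34, from −1.58 for Msln to 0.74 for Bnc1. Their summed level was 39525 in the homozygous lung and 50271 in the heterozygous lung. Msln and Krt19, at −0.58, carry the lower sum in the homozygous lung, while 9 of the 12 genes lay above 0. Fgf5 stood at 0.12 ± 0.22 and Fgf20 at 0.16 ± 0.28. The growth factor Fgf1 had a median of 0.02 ± 0.21 from probes at −0.27 and 0.31, so its sign depends on the probe. Fgf2 was detected in the homozygous RNA alone, at 6.62 over 10 spots, which leaves no difference beyond the lowest level measurable in the other channel. Of the hormone-like ligands, which travel in blood, only Fgf23, the phosphate-regulating hormone of bone, was detected, at −0.10 ± 0.35. Across the 10 detected paracrine ligands the median ratio was 0.07 with 4 genes below 0. That median was −0.03 with median centring, which is 0.26 below the shift of all genes. It was −0.14 among probes well above background in both channels and −0.07 when each gene took its brightest probe.

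The FGF homologous factors are relatives that stay inside the cell and bind voltage-gated sodium channels, chiefly in neurons. All 4 were detected. Fgf11 stood at −0.31 ± 0.22 with probes at −0.41 and −0.21, and Fgf12 at −0.25 ± 0.36 with probes at −0.54 and 0.03. Fgf13 had a median of 0.45 ± 0.50 from 3 probes, of which only the one at 0.66 was well above background in both channels, with 8.601 in the homozygous lung and 7.943 in the heterozygous lung. Fgf14 was measured in the homozygous channel only, at 1 of its 3 probes. Its bound of 1.16-fold higher equals its own ratio and is again less than its error. With median centring the ratio of Fgf14 was −0.07. Markers of neurons and Schwann cells had a median of −0.24 over 9 detected of 11 genes, with summed levels of 3443 in the homozygous lung and 4284 in the heterozygous lung, and their part in these values was not tested.

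**Figure D2:**
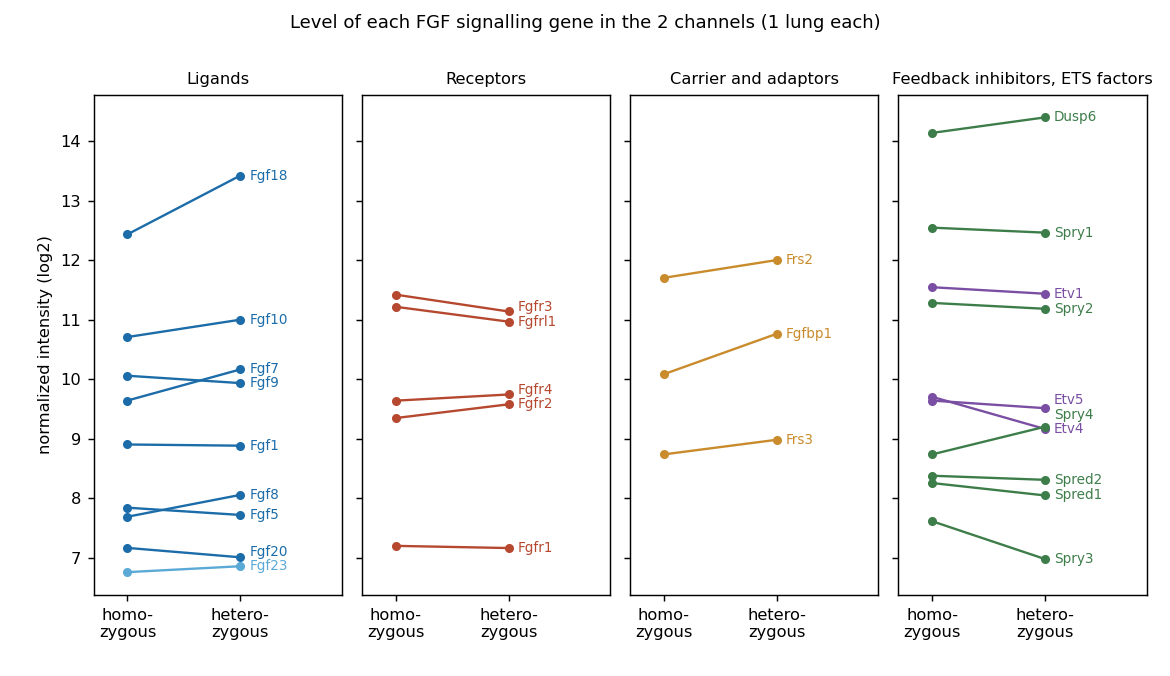
Normalized intensity (log2, vertical axis) of the FGF signalling genes measured in both channels, without the homologous factors and fusion-partner names, each joined from the homozygous lung (left) to the heterozygous lung (right), 1 lung each. The steepest lines are those of Fgf18, Fgfbp1 and Spry3, and heights of different genes are not comparable because each has its own probes.

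All 5 receptor genes were measured in both channels, and their ratios ran from −0.23 to 0.28 with a median of 0.04, none of them past 1.5-fold with loess. Fgfr2, the receptor of Fgf7 and Fgf10 on lung epithelium, had a median ratio of −0.23 ± 0.21. Its 3 probes spread widely: the brightest stood at −0.48 with levels of 12.79 in the homozygous lung and 13.27 in the heterozygous lung. A probe printed on 9 spots stood at −0.23 ± 0.04 (SD over spots) with 9.35 in the homozygous lung and 9.58 in the heterozygous lung. The dimmest stood at 0.05. Median centring turned the sign of Fgfr2 to 0.15, which is 0.08 below the shift of all genes. Fgfr4 also had its lowest ratio at its brightest probe, −0.47, with levels of 12.39 in the homozygous lung and 12.86 in the heterozygous lung. The others stood at −0.10 each. Its median was −0.10 ± 0.21, and 0.20 with median centring, which is 0.02 below the shift of all genes.

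Fgfr3, which in mice acts with Fgfr4 in forming alveoli after birth, was the highest of the receptors at 0.28 ± 0.21. Its level was 11.42 in the homozygous lung and 11.14 in the heterozygous lung, and all 3 probes lay above 0, between 0.27 and 0.39. Fgfrl1, a receptor without a kinase domain, had 11.22 in the homozygous lung and 10.97 in the heterozygous lung, a ratio of 0.25 ± 0.21. Both kept their sign under all 10 other choices. With median centring they stood at 0.83 for Fgfr3 and 0.80 for Fgfrl1, past 1.5-fold, or 0.60 and 0.57 above the shift of all genes.

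Fgfr1, the receptor of mesenchymal cells, had a median of 0.04 ± 0.32 over 4 probes between −0.13 and 0.19. A probe on 10 spots stood at −0.01 ± 0.06 (SD over spots), with 8.01 in the homozygous lung and 8.02 in the heterozygous lung. Another probe overlaps it by 39 bases and stood at 0.09, with 7.67 in the homozygous lung and 7.59 in the heterozygous lung. They are shown as a check on the array, since they read nearly the same stretch of 1 transcript. In the overlap 38 bases are identical and 1 differs, in capitals: A57G, counted from the 5′ end of the first. The first lies at chr8:27039115-27039174 and the second at chr8:27039136-27039195, both on the plus strand of mm8, per the deposited scanner file.
Fgfr1 first probe: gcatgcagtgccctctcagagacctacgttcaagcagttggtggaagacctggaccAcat
Fgfr1 second probe: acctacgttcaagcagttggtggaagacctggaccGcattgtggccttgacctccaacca
Their ratios differed by less than the SD of 0.27 between probes of 1 gene over 7144 genes. The SD between repeated spots of 1 probe was 0.058 over 214 probes.

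Next to the receptors, all 3 genes of the carrier and adaptor group lay below 0 with loess. Median centring turned Frs2 to 0.26, which is 0.04 above the shift of all genes. It turned Frs3 to 0.07, which is 0.15 below that shift. Fgfbp1, a secreted carrier that frees FGFs from heparan sulphate in the matrix, had 10.09 in the homozygous lung and 10.76 in the heterozygous lung. Its ratio was −0.68 ± 0.21, or 1.60-fold lower, from 1 probe at chr5:44267574-44267633 on the minus strand of mm8. It stayed below 0 under all 10 other choices, from −0.72 to −0.17. Frs2, the docking protein that couples the receptors to Ras, had 11.704 in the homozygous lung and 12.003 in the heterozygous lung, a ratio of −0.30 ± 0.21. Both of its bright probes lay below 0, at −0.36 and −0.30, and a dim one, above background in the homozygous RNA alone, stood at 0.15. Frs3, its relative, stood at −0.25 ± 0.21.

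**Figure D3:**
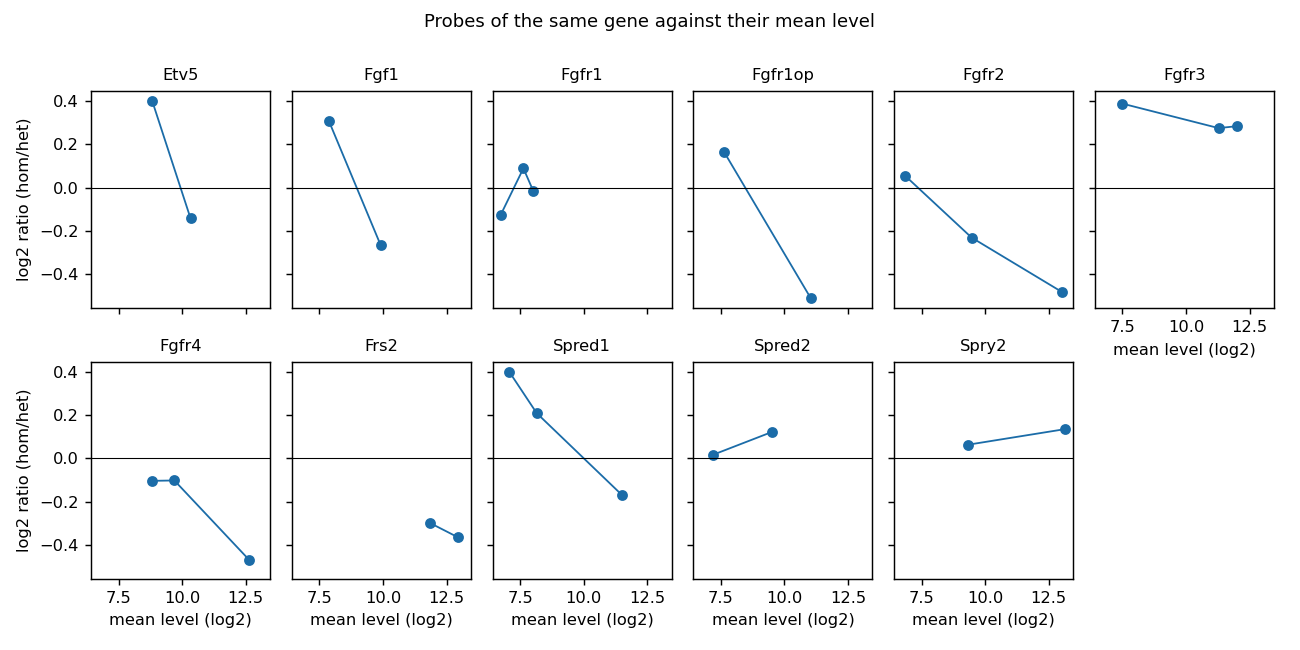
Log2 ratio of homozygous over heterozygous lung (vertical axis) against mean level (log2, horizontal axis) for each probe well above background in both channels, in the 11 FGF signalling genes whose probes differ by at least 1 in level. In 8 of the 11 genes, 72.7%, the brightest probe has a lower ratio than the dimmest, against 65.9% of all such genes on the array.

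Probes of a gene can also be set out by their brightness. Among the 11 genes with probes at least 1 log2 unit apart in level, the brightest probe had the lower ratio in 8, 72.7%, and the median difference between brightest and dimmest was −0.36. Over all 4540 such genes on the array the share was 65.9% and the median difference −0.11, so the count is close to the background of the array. Of the 16 FGF signalling genes with several kept probes, 10 had probes on both sides of 0. The same share over all genes was not counted, so this is no result about these genes. In Frs2, Fgf12 and Fgf13 one side of 0 was read only by a probe above background in the homozygous channel alone. The SD between probes of 1 gene was 0.27 over 7144 genes. The offset added in the background correction draws dim probes towards 0. The ratios of the genes were run again with an offset of 0, where Spry3 went from 0.64 to 0.97. The part of the offset in the difference between bright and dim probes was not tested.

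The feedback inhibitors and ETS factors, the usual readouts of the pathway, had a median of 0.10 over 10 detected genes with 2 below 0. With median centring it was 0.53, or 0.31 above the shift of all genes. Bright genes such as Spry1, which went from 0.08 to 0.68, moved by more than that shift, so this distance alone gives no direction for the group. Etv4, an ETS factor of the distal airway tips, stood furthest above 0 among the ETS genes. Its level was 9.71 in the homozygous lung and 9.16 in the heterozygous lung, a ratio of 0.54 ± 0.21, or 1.45-fold higher, and it stayed between 0.53 and 0.96 under all 10 other choices. Etv5, its partner at the tips, was within its error of 0 with loess, at a median of 0.13 ± 0.21. Its brighter probe stood at −0.14 and its dimmer one at 0.40, so its sign turned when the brightest probe was taken. Etv1 had 11.55 in the homozygous lung and 11.44 in the heterozygous lung, a ratio of 0.11 ± 0.20. With median centring Etv5 stood at 0.54 and Etv1 at 0.67, which is 0.31 and 0.45 above the shift of all genes.

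The list of tip markers holds Etv5 itself, and also Napsa and Lamp3, which mark alveolar type II cells as well. Tip markers as a list gave no common shift, with a median of 0.08 over 10 detected of 10 genes, from −0.99 for Napsa to 0.48 for Mycn. Their summed level was 266325 in the homozygous lung and 238549 in the heterozygous lung. General epithelial markers had a median of 0.04 over 13 genes, with summed levels of 186648 in the homozygous lung and 208991 in the heterozygous lung. Their part in the value of Etv4 was not tested.

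Sprouty proteins block Ras activation below the receptor. Spry1 and Spry2 differed between the lungs by less than their errors with loess, and were higher in the homozygous lung with median centring. Spry1 had 12.55 in the homozygous lung and 12.46 in the heterozygous lung, a ratio of 0.08 ± 0.20, and Spry2 stood at 0.10 ± 0.21 with probes at 0.06 and 0.13. With median centring Spry1 stood at 0.68 and Spry2 at 0.62, which is 0.46 and 0.39 above the shift of all genes. Spry4 had 8.74 in the homozygous lung and 9.20 in the heterozygous lung, a ratio of −0.47 ± 0.21 from 1 of its 2 probes. Spry3 went the other way, with 7.62 in the homozygous lung and 6.98 in the heterozygous lung, a ratio of 0.64 ± 0.28 or 1.55-fold higher. Its single probe was dim in both channels, and the file places it on no assembled chromosome. Its ratio was 0.97 with an offset of 0 and 0.57 with no background subtraction. The scanner software's own ratio for Spry3, which differs in background and dye correction, was 1.37, past 2-fold.

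Spred proteins block Ras signalling at the membrane. Spred1 had a median of 0.21 ± 0.21 from probes at −0.17, 0.21 and 0.40, the brightest being the lowest, and Spred2 stood at 0.07 ± 0.24. Dusp6, the phosphatase that removes phosphate from ERK, had 14.14 in the homozygous lung and 14.40 in the heterozygous lung. Its ratio of −0.26 ± 0.21 became 0.49 with median centring, 0.26 above the shift of all genes, so no direction can be given.

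Fgfr1op and Fgfr1op2 are named after fusions with FGFR1 in human leukaemias, and Fgfr1op, now Cep43, encodes a centrosomal protein. Fgfr1op had a median of −0.17 ± 0.22 from probes at −0.51 and 0.16. The probes of Fgfr1op2 disagreed most of all FGF signalling genes. One, at chr6:146555335-146555393 of mm8, stood at 1.14 with 12.04 in the homozygous lung and 10.90 in the heterozygous lung. The other, at chr6:146545961-146546020, stood at −0.44 with 10.68 in the homozygous lung and 11.13 in the heterozygous lung. They are 9314 bases apart, and the median of 0.35 ± 0.22 describes neither.

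**Figure D4:**
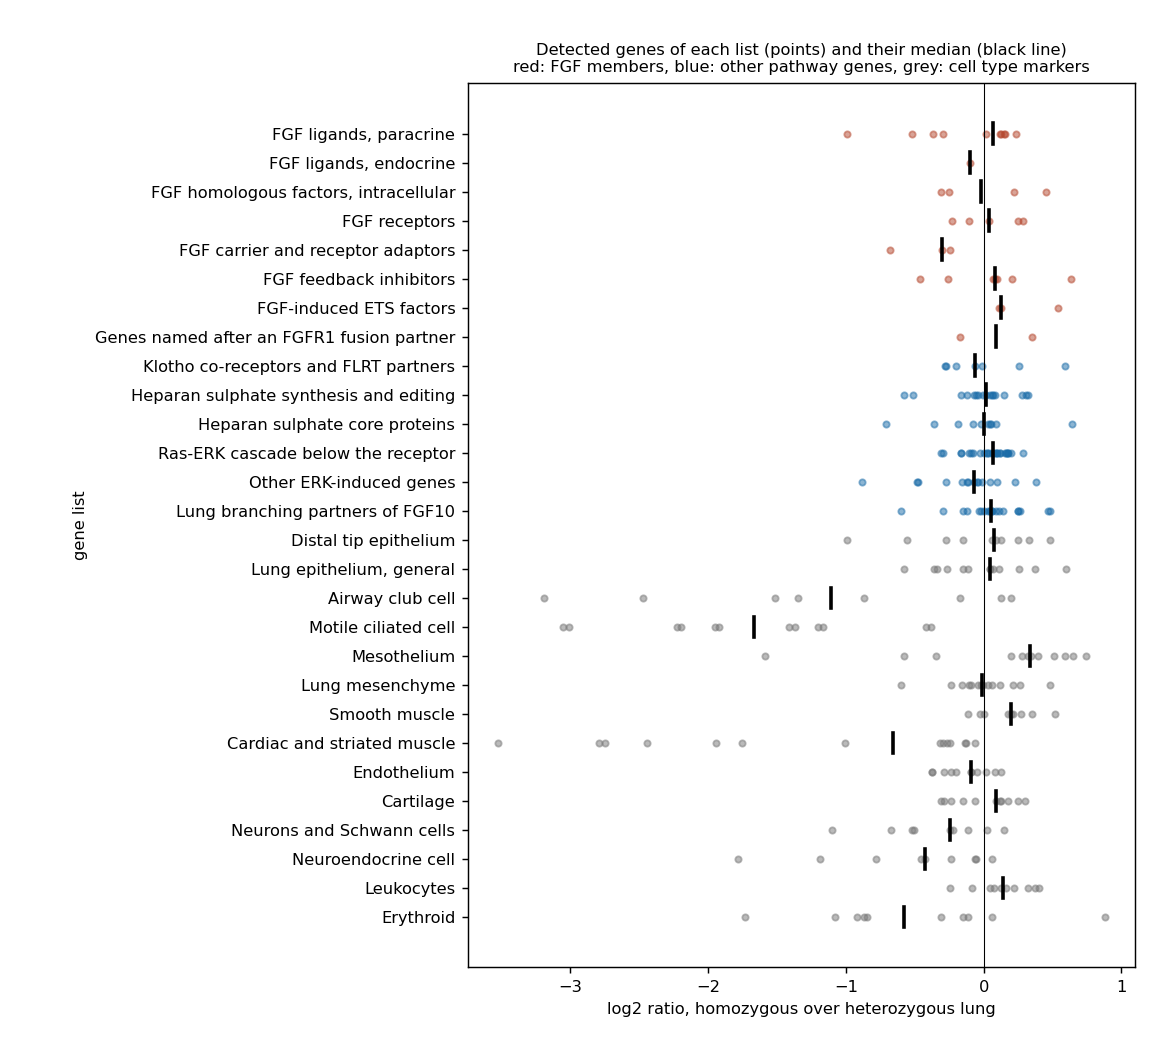
Log2 ratio of homozygous over heterozygous lung (horizontal axis) of every detected gene, by list, with the median as a black line, for FGF signalling genes (red), other genes of the pathway (blue) and cell type markers (grey). Medians of the FGF signalling and pathway lists lie between −0.30 and 0.13, while ciliated, club and cardiac markers extend far to the low side.

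Genes that work with FGFs elsewhere in the pathway were close to equality as groups with loess, and none of them in 6 lists was then 2-fold different in either direction. With the scanner software's own ratio Gpc2 stood at 1.11 and Lctl at 2.03. Ratios of these lists with median centring are not given here, so their signs hold for loess only. Of the Klotho co-receptors and FLRT partners, 7 of 9 were detected with a median of −0.06. Flrt3 was lowest at −0.28 ± 0.21, and Cdh2 was highest of those in both channels at 0.25 ± 0.21. Lctl, in the homozygous channel only, had a bound of at least 1.25-fold higher, less than its error of 0.53. The 17 enzymes that make and edit heparan sulphate had a median of 0.02, from Ext2, a chain polymerase, at −0.58 ± 0.21 to the sulphotransferase Hs6st2 at 0.32 ± 0.21. None of the 17 passed 1.5-fold. Of 10 heparan sulphate core proteins, 1 lay beyond 1.5-fold on each side, and the median was 0.0032. Sdc4, a syndecan, had 11.89 in the homozygous lung and 12.59 in the heterozygous lung, a ratio of −0.71 ± 0.21, and the glypican Gpc2 had 8.44 and 7.80 in the homozygous and heterozygous lung, a ratio of 0.64 ± 0.24.

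Below the receptor, all 27 Ras-ERK genes on the array were detected with a median of 0.07 and none past 1.5-fold. The lowest was the Ras inhibitor Nf1 at −0.31 ± 0.21. Of 16 other genes that ERK induces, 15 were detected with a median of −0.07 and 11 below 0 with loess, where 50.4% of all genes lay below 0. Junb, an AP-1 subunit, was the 1 gene of them at least 1.5-fold lower. It had 11.45 in the homozygous lung and 12.33 in the heterozygous lung, a ratio of −0.88 ± 0.22 with both probes alike, at −0.94 and −0.83. Myc was highest at 0.38 ± 0.21.

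Among the partners of Fgf10 in lung branching, 20 of 21 were detected with a median of 0.06 and 6 below 0. Wnt2, a Wnt ligand of the lung mesenchyme, had 14.49 in the homozygous lung and 15.09 in the heterozygous lung, a ratio of −0.60 ± 0.21, and was the only one past 1.5-fold with loess. Its ratio with median centring is not given here. Dusp6, bright as well, turned from −0.26 to 0.49 with that choice. Mycn, a tip epithelial regulator, was highest with 10.41 in the homozygous lung and 9.93 in the heterozygous lung, a ratio of 0.48 ± 0.23.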

How the data were processed

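Per the file headers, spot and local background intensity were deposited on a linear scale by the authors, and the deposited log ratio is log10 of red over green processed signal. The flags for spots well above background, saturated or outlying are also as deposited. The scanner software was Agilent Feature Extraction 9.5.3.1, per the submitters' processing notes. The 2 deposited scanner files are identical and count as 1 array. Per the labels' protocols, 100 ng of total RNA was amplified in 1 round. In the authors' deposited series matrix the values are processed intensity multiplied by 1.68, floored at 15, with medians of 138.8 (homozygous) and 139.8 (heterozygous). Comparison with the scanner values settled its scale and direction, and the reason for the factor is unknown.

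Mean signals were corrected with limma 3.58.1 in R 4.3.3 (normexp, offset 50, local median background) and loess-normalized with control spots at weight 0. Control spots and 169 outlier spots were then left out, and 0 spots were saturated. Spots of a probe were averaged. Probes entered if over 0.5 of their spots were flagged well above background in either channel, and genes were given the median over such probes. A bound sets the measured channel against the higher of the gene's other channel and the lowest level well above background there, 6.32 (homozygous) or 6.62 (heterozygous). The limits of 2-fold and 1.5-fold are sizes, not tests. The number of arrays limits the precision.

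Of the probes left, 24372 were named through a transcript accession in a RefSeq table of GRCm38.p6, 6300 by symbol, 2425 by synonym and 8070 as in the file. Sequences and coordinates are those of the scanner file, and no mm8 annotation was used. Every FGF signalling gene is named, with the lowest and highest of each pathway list, except 1 highest gene that is not reported here. Hip1, listed in error as an older name of Hhip, was left out of the branching partners. Members, lists and alternatives were chosen with earlier results of these data known. The main normalization and the summary to genes were tested on simulated data, with probes well above background in both channels. Naming, bounds and the alternatives were not tested in this way. Further work used Python 3.11.15, numpy 2.4.6, pandas 2.3.3, data.table (version 1.17.8) and matplotlib 3.10.9.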

Additional observations from a re-analysis of the deposited data

How the results depend on the processing

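The count of 0 genes at least 2-fold higher became 1 with the scanner software's ratio, against 2.8% of all genes. It became 1 with the series matrix, against 2.16% (Spry3 in both). With the brightest probe of a gene it became 1 (Fgfr1op2), against 0.671%. The count of 2 genes at least 1.5-fold lower became 0 with median centring, against 6.33% of all genes. It became 3 among probes well above background in both channels, against 6.28%. It was also 3 with the brightest probe of a gene, where Fgf8 joined at −0.67, against 6.83%. The count of 1 gene at least 1.5-fold higher became 3 with an offset of 0 (4.24% of all genes) and 0 without background subtraction (1.79%). It became 8 with median centring (22.7%), 5 with the scanner ratio (8.62%) and 5 with the series matrix (8.23%). It was 2 among probes well above background in both channels (2.12%) and 3 with the brightest probe (2.39%). These counts are out of 35 genes, or 32 where both channels were required. The median of feedback inhibitors and ETS factors, 0.10, became 0.53 with median centring, which moved the median of all genes by 0.22. Of 347 gene values over 10 alternatives, 313 moved by less than the scanner error and 34 by more, 21 of these under median centring and 7 with the brightest probe. In sign, 20 of 35 genes held under every alternative run, and median centring turned 12. Taken relative to the shift of all genes, 21 of 35 held under every alternative run. That shift is 1 value for all genes, while dim and bright genes moved by unlike amounts under median centring. Ratios of dim probes, such as those of Spry3, Fgf17 and Fgf14, are limited by signal over background. No paired analysis was possible because each group had 1 sample.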
